A study of Mus musculus with 6 samples.

Results

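Stimulated macrophages of the LAP knock-in line were compared with stimulated wild-type macrophages across the whole array. The comparison uses 2 of the 6 arrays of the study, 1 of each genotype, and all 12422 probe sets that are not array controls, of 12488 in all. It asks how the response of macrophages differs when NF-IL6 is replaced by the allele called KI(LAP). The source of every sample was mouse peritoneal exudate, named in some labels as macrophages of the peritoneum, and the strain label of each is C57BL/6. The wild-type (WT) cells and the knock-in (KI) cells had both received bacterial lipopolysaccharide (LPS) with interferon-γ. A time of 12 h is given for the KI cells and for the cells without NF-IL6 (KO), while no time is given for the WT cells, so a difference in duration cannot be told apart from genotype. The labels do not describe the KI(LAP) construct, and they do not say how many animals an array stands for. The untreated arrays of WT, KO and KI cells and the stimulated KO array are used here only beside the values of the 2 stimulated arrays.

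NF-IL6 is another name for C/EBPβ, a leucine-zipper factor that binds DNA as a dimer and is the product of Cebpb, a gene with a single coding exon. Translation from alternative start sites gives activating forms called LAP and a short form called LIP, which binds the same DNA letters without the activating part. In macrophages C/EBPβ is known for its role at the promoters of cytokines, acute-phase proteins, prostaglandin E synthase and arginase. The labels do not say whether the KI(LAP) allele keeps LAP, LIP or both.

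There was 1 array on each side, so no value below has a replicate or a p-value, and the number of arrays limits the precision. Signals are linear MAS5 intensities on a common scale. Log2 differences were taken after raising every signal under a floor of 98.0 to that floor. Where the lower of both signals was under the floor, the fold is written as "at least". A probe set or gene counted as higher or lower when its signals differed by at least 2-fold, a difference of 1 on the log2 scale. Of 12422 probe sets, 9344 were above the floor on at least 1 of the 6 arrays, and 6767 genes were named from them, each by its brightest probe set. In the gene groups below, "in use" means above the floor on at least 1 array. The median deposited signal was 164 on the WT array and 131 on the KI array, and 61.2% and 55.7% of probe sets lay above the floor. The labelled cell type was borne out by macrophage markers, although 3 of 11 in use were lower in KI cells, which were Cd14, Itgam and Msr1, and 0 were higher. Among all named genes 4.8% were lower and 1.92% higher. The summed signals of the macrophage markers were 58416 in WT and 52182 in KI cells. Lyz2, lysozyme of myeloid cells, had a signal of 15211 in stimulated WT and 14548 in stimulated KI cells, Cd68 had 12528 and 12247, and Adgre1, the F4/80 antigen, had 5562 and 5450.1.

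Cebpb itself was examined first. Its signal was 5492 in untreated and 9329 in stimulated WT cells, 12.7 and 59.0 in KO cells, and 2284 and 5889.9 in KI cells. The stimulated KI signal was thus 1.58-fold below WT and far above both KO signals, which were under the floor. The position of this probe set with respect to the changed stretch of the gene was not examined, and the array does not separate LAP from LIP. The other family members were close to WT or higher. Cebpa, which acts in myeloid differentiation, had 2336 in stimulated WT and 3169 in stimulated KI cells, Cebpd had 782 and 784, and Cebpg, a partner without an activating domain, had 207 and 325. Ddit3, the stress-inducible member also called CHOP, was 2.43-fold higher in KI cells (274 in WT, 666 in KI).

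Across the array, more genes were lower than higher in stimulated KI cells. Of 9344 probe sets, 177 were higher (1.89%) and 460 lower (4.92%). Among the 6767 named genes, 130 were higher (1.92%) and 325 lower (4.8%), and the median difference was -0.0048, with quartiles of -0.36 and 0.17. These shares of named genes are the background for the counts of every gene group below. Large differences were few, since 5 genes were higher and 20 lower by at least 4-fold, a difference of 2 on the log2 scale. The surplus of lower genes was larger among dim genes. Of the 2646 genes that reached a signal of 532, the 75th percentile, on at least 1 of the 2 arrays, called bright genes, 56 were higher and 88 lower, while 101 of the 325 lower genes had a KI signal under the floor. With genes split by mean signal into 4 classes of equal size, 1.48% were higher and 2.07% lower in the brightest class, 2.13% and 3.67% in the next, 4.08% and 13.5% in the one after it, and 0 in the dimmest, where the floor leaves no room for a 2-fold difference. The direction of this surplus depended on the scaling. Centring each array on its median in place of the trimmed mean moved the median of all named genes to 0.15 and turned the split of probe sets to 503 higher and 226 lower, and quantile normalization gave 282 and 281. The 25 lowest and the 25 highest of these bright genes kept their direction and a difference of at least 2-fold under all 3 of the other scalings. This is a weak check of such large differences. Deposited signals without rescaling nearly equal the main ones, and median centring moves every gene above the floor on both arrays by the same amount. The lowest and highest bright genes are described next.

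**Figure D1:**
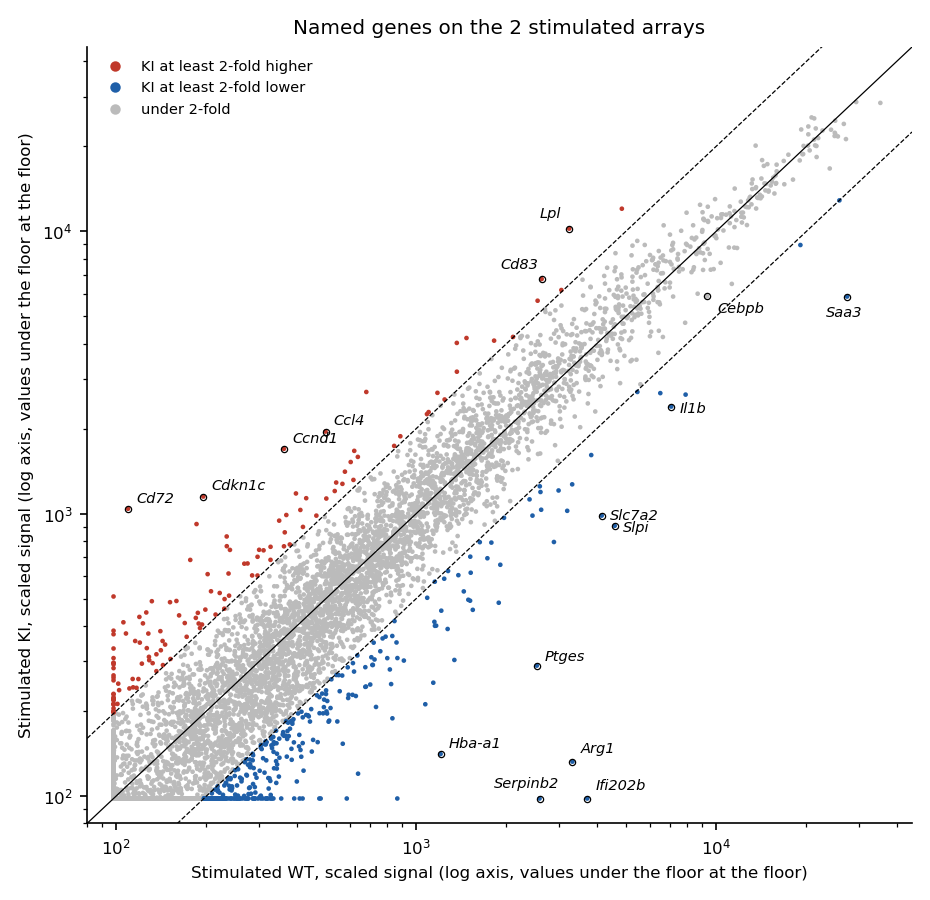
Scaled signals of 6767 named genes in stimulated WT cells (horizontal, log axis) and stimulated KI cells (vertical, log axis), 1 array each, with values under the floor drawn at the floor; the solid line marks equal signals and the dashed lines a 2-fold difference. Red points (130 genes) are at least 2-fold higher and blue points (325 genes) at least 2-fold lower in KI cells, and Ifi202b, Serpinb2 and Arg1 lie furthest below the line.

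The gene furthest below WT was Ifi202b, an interferon-inducible member of the p200 family. Its signal was 934 in untreated and 3719 in stimulated WT cells and 432 and 3726 in KO cells, against 7.10 in untreated and about 1 in stimulated KI cells, which made stimulated KI cells at least 37.9-fold lower than WT. Only the KI arrays were low, and the 2 stimulated arrays with high signals were WT and KO. Ifi202b is known to differ in expression between inbred mouse strains, with low levels in C57BL/6, and whether the strain background of the lines differed was not tested here. Its relative Ifi209 went the other way, with 369 in WT and 989.5 in KI cells (2.68-fold higher), and Ifi204 was close on both arrays, at 5261 and 6638.

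Serpinb2, the plasminogen activator inhibitor of macrophages also called PAI-2, came next. It had 478 in untreated and 2579 in stimulated WT cells, whereas KO cells had 64.5 and 158 and KI cells 24.8 and 93.3. Both KI signals were under the floor, so stimulated KI cells were at least 26.3-fold lower than WT. Arg1, the arginase that turns arginine into ornithine and urea, had 3949 in untreated and 3320.1 in stimulated WT cells and 194 and 132 in KI cells, 25.1-fold lower after stimulation. KO cells held Arg1 at the WT level before stimulation, 3674, and at 388 after it, so the untreated KI array alone was low among the untreated ones. Slpi, a secreted inhibitor of leukocyte proteases, had 4592 in stimulated WT and 906 in stimulated KI cells (5.07-fold lower), and its other probe sets were lower too, by 2.27 and 1.14 on the log2 scale. Mgst1, a microsomal glutathione transferase, had 1141 and 252 (4.53-fold lower), and Chil3, a chitinase-like secreted protein of alternatively activated macrophages, 640.4 and 120.0 (5.34-fold lower).

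The stretch before the start of 5 of these genes is shown because each holds a 9-base C/EBP-type pattern, TTNNGNAAT or ATTNCNNAA, which is the same on the other strand, and because they are among the 25 lowest bright genes. Each line gives 250 bases up to the start of the gene, 5′ to 3′ on the strand of the gene, from RefSeq in build GRCm38.p6, with the matching letters in capitals.
Ifi202b, chr1:173982845-173983094, strand -: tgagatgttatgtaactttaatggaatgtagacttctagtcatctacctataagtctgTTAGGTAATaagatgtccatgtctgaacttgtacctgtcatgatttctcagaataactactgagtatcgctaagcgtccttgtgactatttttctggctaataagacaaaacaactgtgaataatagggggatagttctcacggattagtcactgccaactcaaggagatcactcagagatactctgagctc
Serpinb2, chr1:107511173-107511422, strand +: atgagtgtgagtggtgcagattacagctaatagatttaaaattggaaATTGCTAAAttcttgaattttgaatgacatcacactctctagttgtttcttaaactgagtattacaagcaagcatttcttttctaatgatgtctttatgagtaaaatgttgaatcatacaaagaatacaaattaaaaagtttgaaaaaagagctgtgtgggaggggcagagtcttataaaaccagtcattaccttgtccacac
Slpi, chr2:164356508-164356757, strand -: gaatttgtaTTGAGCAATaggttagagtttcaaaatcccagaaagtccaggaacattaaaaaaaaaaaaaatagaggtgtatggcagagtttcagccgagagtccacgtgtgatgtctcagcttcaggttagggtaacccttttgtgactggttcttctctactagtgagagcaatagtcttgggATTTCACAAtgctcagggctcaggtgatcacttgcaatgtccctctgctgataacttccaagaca
Mgst1, chr6:138141337-138141586, strand +: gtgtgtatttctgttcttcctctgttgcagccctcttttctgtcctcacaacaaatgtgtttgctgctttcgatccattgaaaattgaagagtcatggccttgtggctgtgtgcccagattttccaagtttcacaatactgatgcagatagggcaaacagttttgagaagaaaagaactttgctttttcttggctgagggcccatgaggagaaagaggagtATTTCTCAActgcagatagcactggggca
Chil3, chr3:106167565-106167814, strand -: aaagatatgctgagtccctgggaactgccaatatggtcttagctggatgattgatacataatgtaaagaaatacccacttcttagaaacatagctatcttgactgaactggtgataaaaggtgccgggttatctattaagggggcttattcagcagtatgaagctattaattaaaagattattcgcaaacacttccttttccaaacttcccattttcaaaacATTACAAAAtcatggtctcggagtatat
The pattern lies 192 bases before the start in Ifi202b, 203 in the Serpinb2 window shown, 29 in Mgst1 and 28 in Chil3, and Slpi holds it at 2 places. A match describes letters and does not show that the factor binds. Of all 32851 windows of 300 bases in the promoter table, which reach 50 bases past the start, 11.5% hold the pattern. Among genes with a window, it was present in 30 of 240 lower genes (12.5%), in 13 of 102 higher genes (12.7%) and in 9.74% of the 5433 named genes with a window. It was present in 7 of the 19 lowest bright genes with a window and in 3 of the 18 highest. The lowest genes had 1.53 windows per gene and all named genes 1.28, and a gene counted once if any of its windows matched.

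**Figure D2:**
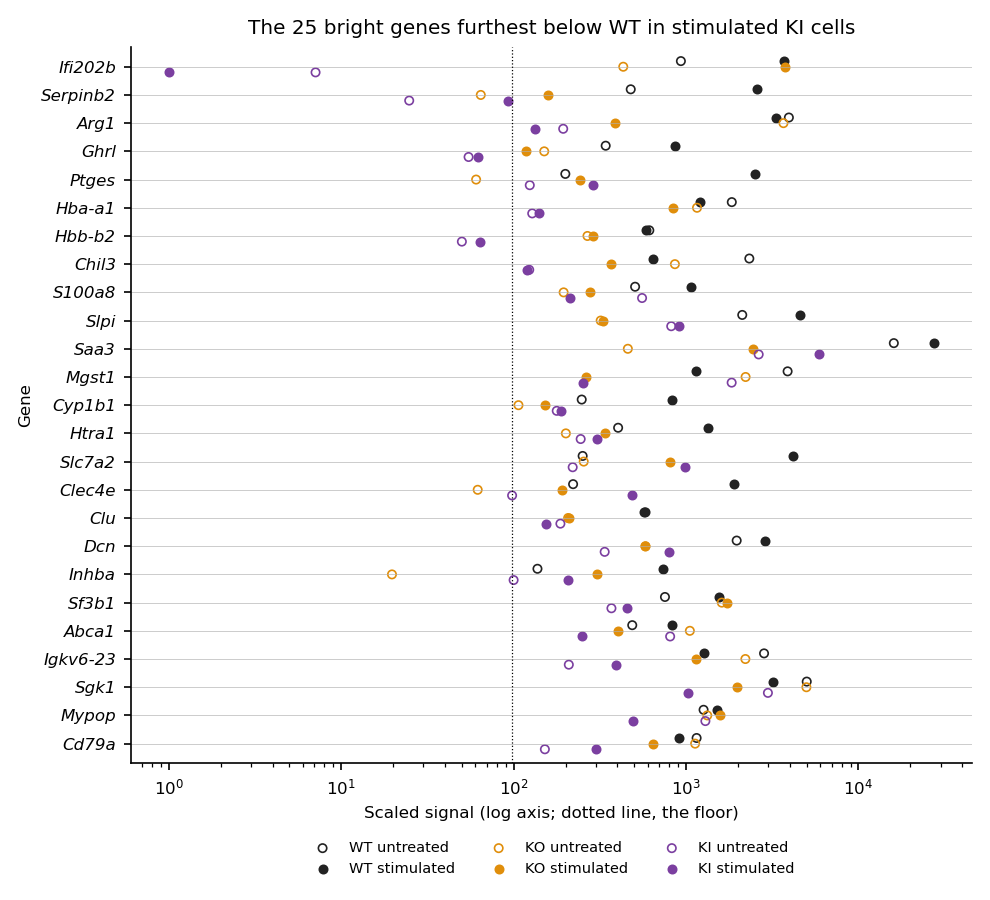
Scaled signals (log axis) on all 6 arrays for the 25 genes furthest below WT in stimulated KI cells among those that reach a signal of 532, in order from the top; open circles are untreated and filled circles stimulated cells, with WT in black, KO in orange and KI in purple, and the dotted line is the floor. The filled purple circle lies left of the filled black one in every line, and for Ifi202b the KO circles lie with WT.

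Genes known from the literature as targets of C/EBPβ were lower for 9 members and higher for none. Of 22 such genes in use, these 9 were at least 2-fold lower, 19 were below 0, and the median was -0.90, against 4.8% lower and a median of -0.0048 over all named genes. With arrays centred on the median the list's median was -0.58, still below 0, with 7 lower and 1 higher. This list, like the others, was chosen with earlier results of these data known. Its shares describe the members and lend no independent support. Ptges, the inducible prostaglandin E synthase, had 199.5 in untreated and 2525 in stimulated WT cells, 60.6 and 242 in KO cells and 124 and 289.7 in KI cells. Stimulated KI cells were 8.72-fold lower than WT and close to KO. Saa3, a macrophage serum amyloid A, had 16042 and 27344 in WT, 459.8 and 2443 in KO and 2639 and 5879 in KI cells. Here KI cells lay between the other genotypes in both states, 4.65-fold lower than WT after stimulation. Cd14, the LPS co-receptor, had 7915 in WT, 2845 in KO and 2642 in KI cells after stimulation, and KI minus WT was -1.58 on the log2 scale. Il12a, the p35 subunit of interleukin 12, had 287 and 126 in stimulated WT and KI cells, both dim.

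Other targets on the same list lay close to WT. Tnf had 13549 in stimulated WT and 14223 in stimulated KI cells, Nos2, the inducible nitric oxide synthase, 2766 and 2579, and Ptgs2, the inducible cyclooxygenase upstream of Ptges, 5975 and 4746. Il12b, the p40 subunit, had 4066 and 2988. Marco, a scavenger receptor that is not on that list, had 2055 in WT, 256 in KO and 2266 in KI cells after stimulation. Among the stimulated arrays KI was thus at the WT level and KO alone was low. Before stimulation Marco had 201.5 in WT cells and was under the floor in both KO and KI cells, at 12.1 and 21.1. Csf3, granulocyte colony-stimulating factor, was dim and 1.65-fold lower in KI cells (508 in WT and 307 in KI).

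Within the prostaglandin and leukotriene genes the synthase and the receptor lay at opposite ends. Of 17 genes, 1 was higher and 3 were lower, against 1.92% and 4.8% of all named genes. The median was -0.27 and became 0.00 with median centring. Ptger4, the prostaglandin E2 receptor EP4, had 49.6 and 185 in untreated and stimulated WT cells, 289 and 1112 in KO cells and 255 and 919 in KI cells. It was thus 4.96-fold higher in stimulated KI than in WT cells, where Ptges was 8.72-fold lower. Ltc4s, leukotriene C4 synthase, had 3721 in untreated WT and 183 in untreated KI cells, and after stimulation 245 in WT and a signal under the floor in KI cells, at least 2.50-fold lower. Ptgis, prostacyclin synthase, had 493 and 206 in the stimulated cells.

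Genes of arginine use were lower at uptake and at arginase and close to WT at nitric oxide synthase. Of 13 genes 0 were higher and 3 lower, against 1.92% and 4.8% of all named genes, with a median of -0.30 (0.00 with median centring). Slc7a2, the inducible cationic amino acid transporter, had 251 in untreated and 4156 in stimulated WT cells, 255 and 807 in KO cells and 220.1 and 985 in KI cells. The untreated arrays were alike for this gene, and the stimulated WT array stood above the other 2 stimulated arrays. Asl, argininosuccinate lyase, was dim, with 319.9 in WT and a signal under the floor in KI cells, and its second probe set differed by -0.11 on the log2 scale. Ass1, the enzyme before it, had 1060.4 and 765.

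Several secreted acute-phase and defence proteins were lower. Against 4.8% lower and 1.92% higher among all named genes, of 13 genes 5 were lower and 0 higher, 12 were below 0 and 0 above, and the median was -0.85 (-0.52 with median centring). S100a8, a subunit of calprotectin abundant in neutrophils and monocytes, had 507 and 1073 in WT, 195 and 277 in KO and 556 and 211 in KI cells. The untreated KI array was as high as the untreated WT array, and the stimulated KI array was the lowest but one of the 6. Camp, the cathelicidin, had 334 and 162, the acute-phase protein haptoglobin (Hp) 601 and 308, and Lcn2, an iron-scavenging lipocalin, 398 and 221 in stimulated WT and KI cells. Fn1, fibronectin, had 1958 and 1223.

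Of these secreted proteins S100a8 and Camp are also neutrophil markers, and 3 of 8 neutrophil markers in use were lower, against 4.8% of all named genes. The summed signal of the 11 neutrophil markers on the array was 3057 in stimulated WT and 1747 in stimulated KI cells, with the largest single gap in S100a8. The defining markers Ly6g and Mpo, and S100a9, were under the floor on both of these arrays. Csf3r was level, at 1001 in WT and 1042 in KI cells. Of the 8 in use 3 were below 0 and 1 above, with a median of 0.00. Elane, neutrophil elastase, had 326 in WT and 70.0 in KI cells. The part of neutrophils in the values of this group was not tested. In bulk RNA, fewer cells of a type and less RNA per cell cannot be told apart.

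Among inflammatory cytokines Il1b and Il6, both secreted early by activated macrophages, were lower in stimulated KI cells. Il1b had 53.7 in untreated and 7088 in stimulated WT cells, 121 and 3869.8 in KO cells and 68.0 and 2396 in KI cells, 2.96-fold lower than WT after stimulation. Il6 had 1908 in stimulated WT, 1257 in KO and 659 in KI cells (2.89-fold lower in KI than in WT). For both genes the stimulated KI array was the lowest of the 3 stimulated arrays. Il1a had 3956 and 2302 in stimulated WT and KI cells, a difference of -0.78 on the log2 scale, and Il1rn, the antagonist of the interleukin 1 receptor, 15651 and 13624. Il6ra, the receptor chain for interleukin 6, had 421 and 123 (3.43-fold lower). Il15 went the other way at low signals, with 189.9 and 336. As groups, 1 of 11 interleukin 1 genes and 3 of 14 genes of the interleukin 6, 10 and 12 axis were lower and 0 of either were higher. Among all named genes 4.8% were lower and 1.92% higher. The medians of these 2 groups were -0.20 and -0.30, and with median centring 0.11 and -0.034. The TNF family had 0 of 16 genes past 2-fold in either direction.

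The chemokines that passed 2-fold were lower in the CXC class and higher in the CC class, and the difference between the classes was not tested. Against 4.8% lower and 1.92% higher among all named genes, of 9 CXC chemokines 4 were lower and 0 higher (median -0.59, -0.51 with median centring and 0.00 with the floor at the 60th percentile, where 2 were lower). Cxcl2, which attracts neutrophils, had 401 and 1493 in WT, 459.7 and 406 in KO and 68.0 and 496 in KI cells, and Cxcl1, its relative with the same receptor, had 1520.4 in stimulated WT and 618 in stimulated KI cells. The stimulated KI signals of Cxcl2 and Cxcl1 were 3.01-fold and 2.46-fold below WT, and a second Cxcl1 probe set differed by -1.70 on the log2 scale. Cxcl5, another neutrophil attractant, had 419 and 154. The interferon-induced CXC chemokines did not share this, since Cxcl9 had 12797 and 12885 and Cxcl10 2579 and 3649.

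Of 13 CC chemokines 3 were higher and 0 lower, against 1.92% and 4.8% of all named genes (median 0.20, 0.52 with median centring). Ccl4, a chemokine of activated macrophages, had 277 and 499 in WT, 215 and 1251 in KO and 212 and 1955 in KI cells. The untreated arrays were close together, and the stimulated KI array was 3.92-fold higher than the WT one. Ccl3, its neighbour and relative, had 1206 and 2411, just under 2-fold. Ccl12, a monocyte attractant, had 579 in WT and 1409 in KI cells, and Ccl22, a macrophage and dendritic cell chemokine, 3049 and 6199. Ccl5 had 24846 and 21775. Among 11 receptors for chemoattractants, Ccr2 and Cxcr4 were higher and Fpr2 and Ccr1 lower. Fpr2, a formyl peptide receptor of phagocytes, had 125 in untreated and 3314 in stimulated WT cells and 13.5 and 1271 in KI cells.

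Receptors for microbial products lay on both sides of WT. Of 16 pattern-recognition and scavenger receptors 5 were lower and 3 higher, against 4.8% and 1.92% of all named genes (median -0.12, 0.00 with median centring). Clec4e, the Mincle receptor for mycobacterial glycolipid, had 221 and 1886 in WT, 61.9 and 191 in KO and 98.0 and 484 in KI cells, 3.90-fold lower in stimulated KI than in WT cells. Its relative Clec4d had 3835 in stimulated WT and 1614 in stimulated KI cells. Msr1, scavenger receptor A, had 1156 and 401, with a second probe set at -0.40 on the log2 scale. The 3 higher genes included both partners of a receptor complex. Cd180, also called RP105, had 491 and 398 in WT, 559.8 and 749 in KO and 429 and 1179.7 in KI cells, and its partner Ly86, or MD-1, had 639 in stimulated WT and 1589.5 in stimulated KI cells. Cd36, a scavenger receptor for oxidised lipids, had 198 and 457. Fcgr2b, the inhibitory receptor for IgG, was 2.91-fold lower (1166 in WT and 401 in KI).

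Some of the genes furthest below WT belong to cell types other than macrophages. Hba-a1, a haemoglobin α chain, had 1843 and 1207 in WT, 1158 and 835 in KO and 128 and 141 in KI cells, and the β chain Hbb-b2 had 587 in stimulated WT and a signal under the floor in KI cells. Haemoglobin paralogs are nearly identical and may share probes. Alas2, the first enzyme of haem synthesis in red cells, was under the floor on both stimulated arrays. Of 4 erythroid markers in use 1 was lower, Hba-a1 itself. The summed signal of the 6 on the array was 2869.6 in stimulated WT and 2164 in stimulated KI cells, most of it from Car2, carbonic anhydrase 2, in KI cells. Cd79a, the B cell receptor chain, had 910.1 in WT and 302 in KI cells, Ighm, the IgM heavy chain, 1964 and 967, and the κ segment Igkv6-23 1274 and 391. For Ighm the brightest probe set differed by -1.02 on the log2 scale, by -0.70 with median centring, and the mean over its 7 probe sets was -0.42. Of 8 B cell markers in use 2 were lower and 0 higher, against 4.8% and 1.92% of all named genes. In all, 6 were below 0 and 2 above, which were Pax5 (under the floor in WT, 146 in KI) and Cd22 (170.5 and 229). Their median was -0.85, and 0.00 with the floor at the 60th percentile. The summed signal of the 11 B cell markers on the array was 4037 in stimulated WT and 2221 in stimulated KI cells. Dcn, the matrix proteoglycan decorin, had 1967 and 2880.4 in WT, 582 and 578 in KO and 337 and 794 in KI cells. Of 12 mesothelial and fibroblast markers in use 3 were lower and 0 higher, beside the same shares of all named genes. Their summed signals were 7082 and 3414 over the 15 on the array. The B cell and fibroblast sums were lower in untreated KI than in untreated WT cells too, at 2320 against 7550 and 3491 against 6183. The part of these cells in the other lower genes was not tested.

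The gene furthest above WT was Cd72, a lectin-like inhibitory co-receptor of B cells that macrophages also carry. Its signal was 346 in untreated and 109.5 in stimulated WT cells, 626 and 1126 in KO cells and 1605 and 1041 in KI cells. The stimulated WT array was the lowest of the 6, and the stimulated KI array was 9.51-fold higher than it. Cdkn1c, the cell cycle inhibitor p57, had 257 and 195 in WT, 172 and 190.2 in KO and 3363 and 1150.3 in KI cells. Here the KI arrays alone were high, 5.89-fold higher than WT after stimulation. Lpl, lipoprotein lipase, had 3776 and 3238 in WT, 6421 and 3444 in KO and 18918 and 10232 in KI cells, and its second probe set was higher as well, by 0.88 on the log2 scale.

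Ccnd1 and Ccnd2, D-type cyclins that drive entry into the cell cycle, were higher alongside this inhibitor. Ccnd1 had 135 and 362 in WT, 210.1 and 1541 in KO and 764 and 1698 in KI cells, although its second probe set differed by only 0.27 on the log2 scale. Ccnd2 was under the floor on all 3 untreated arrays and had 234 in stimulated WT, 757 in KO and 831 in KI cells. Ccnd3 had 859 in stimulated WT and 1263 in KI cells. Of 17 G1 cyclins and inhibitors Cdkn1c, Ccnd1 and Ccnd2 were higher and 0 lower, with a median of -0.12 (0.20 with median centring), so these 3 stood apart from a list that lay near 0. Genes of S phase and mitosis were not higher as a group, since 4 of 29 were lower and 1 higher (median -0.088). The shares over all named genes were 4.8% and 1.92%. Median centring gave 2 lower and 2 higher, and the floor at the 60th percentile 0 and 0. The 1 higher gene was Plk1, with a second probe set at 0.27 on the log2 scale. Mki67, Cdk1, Rrm2 and Tk1, all dim, were the lower ones, with stimulated WT signals from 209 to 501 and KI signals from 69.1 to 237. Pcna, the DNA polymerase clamp, had 3050.4 and 5461.

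Further genes above WT had roles in signalling, adhesion and metabolism. Slc9a3r1, a membrane scaffold, had 682 in stimulated WT and 2699 in stimulated KI cells, and Apbb1ip, an adaptor that activates integrins, 1472 and 4191. Psat1, an enzyme of serine synthesis, had 1367 and 4027, and Slc27a1, a fatty acid transporter, 234 and 767. Bach1, a repressor that haem inactivates, had 454 and 622 in WT and 3169 and 1669.9 in KI cells. Alas1, the first enzyme of haem synthesis outside red cells, had 1574 and 4851 in WT, 2438 and 3172 in KO and 13175 and 12034 in KI cells, so the KI arrays were the highest in both states. Marcks, a substrate of protein kinase C, had 605 and 1524. The remaining genes among the 25 highest bright genes, such as Map1s, Celf2, Pcp2, Gtf2f2, Pea15a, Mrtfa and Cited2, were between 2.51-fold and 3.88-fold higher. The second probe sets of Celf2 and Pcp2 differed by 0.25 and -0.24 on the log2 scale, and these genes are uncertain.

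**Figure D3:**
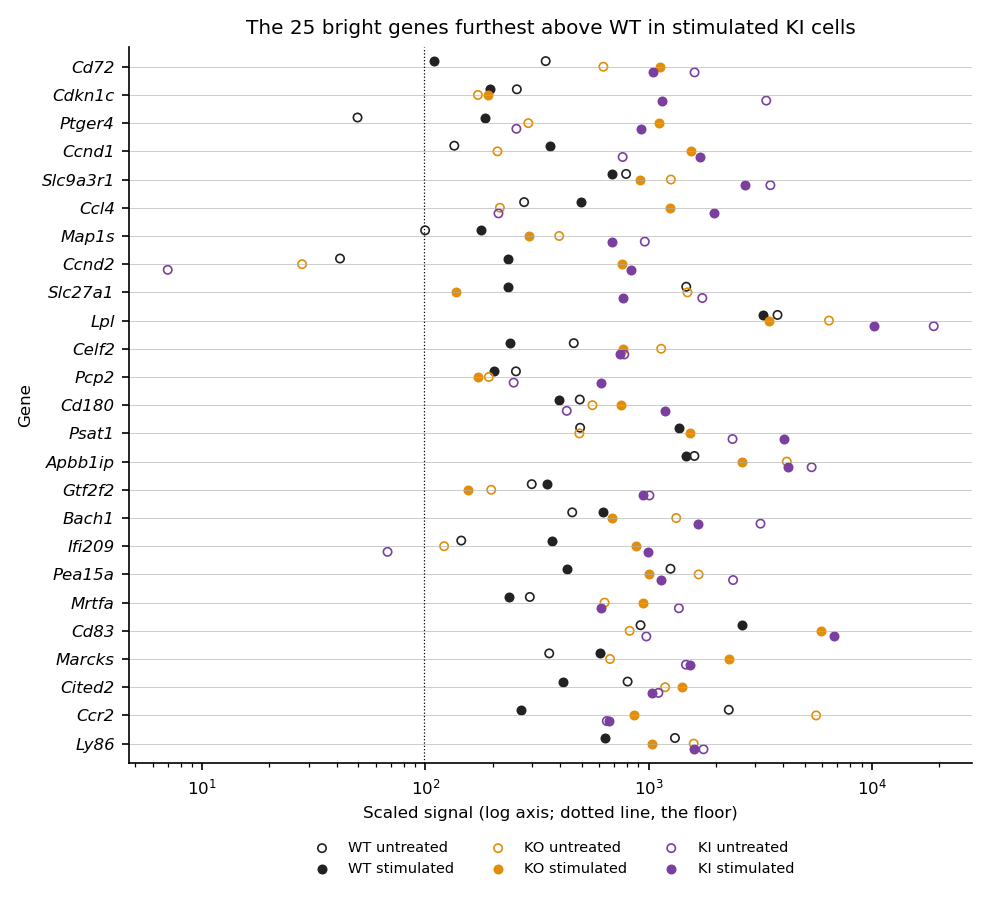
Scaled signals (log axis) on all 6 arrays for the 25 genes furthest above WT in stimulated KI cells among those that reach a signal of 532, in order from the top, drawn with the same symbols: open untreated, filled stimulated, WT black, KO orange, KI purple, and the floor as a dotted line. The filled purple circle lies right of the filled black one in every line, and for Cdkn1c, Lpl and Psat1 it also lies well right of the filled orange one.

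Genes of costimulation were higher in part. Of 11 such genes 2 were higher, Cd72 and Cd83, and 1 was lower (median 0.54, 0.87 with median centring and 0.46 with quantile normalization). Among all named genes 1.92% were higher and 4.8% lower. With the mean over the probe sets of a gene, 1 of the costimulation genes was higher and 1 lower. Cd83, a marker of mature dendritic cells, had 919 and 2621 in WT, 821 and 5927 in KO and 976 and 6782 in KI cells, with the untreated arrays alike. Its second probe set was higher by 0.61 on the log2 scale, under 2-fold. Cd86 had 3358 and 4889 in stimulated WT and KI cells, Cd40 6147 and 7955, and Icam1, an adhesion ligand for T cells, 5226 and 8227. Cd24a, a sialic-acid-bearing surface protein, was lower, at 542 and 268. Of 8 dendritic cell markers in use 2 were higher, Cd83 and Ccl22, and 1 was lower, Flt3, beside the same shares of all named genes. With the mean over probe sets 1 marker was higher and 0 lower. The summed signal of the 10 on the array was 10106 in stimulated WT and 19387 in stimulated KI cells, and Flt3, the receptor that marks dendritic cell precursors, had 414 and 138, with a second probe set at -0.17 on the log2 scale. The part of dendritic cells in these values was not tested.

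Few interferon-response genes passed 2-fold, and few of all named genes did, with 1.92% higher and 4.8% lower. In groups as small as those below, counts of 0 or 1 are close to these shares. Of 11 interferon-inducible GTPases 0 were higher and 0 lower, with differences from -0.42 for Iigp1 to 0.60 for Mx2 and a median of 0.10. Gbp2, one of the guanylate-binding proteins that act against intracellular microbes, had 17424 in stimulated WT and 18697 in stimulated KI cells. Of 24 genes of the type I interferon response 1 was higher and 0 lower (5 higher with median centring and 0 with quantile normalization), 19 were above 0 and the median was 0.33, which stayed between 0.26 and 0.66 over the alternative scalings. Rsad2, the antiviral protein viperin, had 4619.8 in WT and 8372 in KI cells, Ifih1, the RNA sensor MDA5, 2913 and 5253, and Usp18, a feedback protease, 3813 and 6369. The 1 higher gene was Cmpk2 (1101 and 2291), and its second probe set differed by -0.57. Class I antigen presentation had 0 of 13 genes past 2-fold. Class II had 1 of 13, with H2-DMb2 lower at dim signals, and H2-Eb1, a class II β chain, had 7973 and 11649.5. None of the 12 IRF and STAT factors and none of the 15 NF-κB subunits and regulators in use passed 2-fold, and Irf8, a factor of myeloid cells, had 5784 and 8956.

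Genes that every cell uses were near equality. For comparison, 1.92% of all named genes were higher and 4.8% lower. None of 29 core proteasome, 37 oxidative phosphorylation, 31 lysosome, 17 cytosolic ribosomal protein or 12 housekeeping genes passed 2-fold in either direction. Their medians were 0.056, 0.00, -0.05, -0.054 and -0.02 on the log2 scale. With median centring the same medians were 0.38, 0.32, 0.28, 0.23 and 0.31. Eef1a1, the elongation factor, had 24176 and 22921, and Rplp0, a ribosomal stalk protein, 15809 and 14764.

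**Figure D4:**
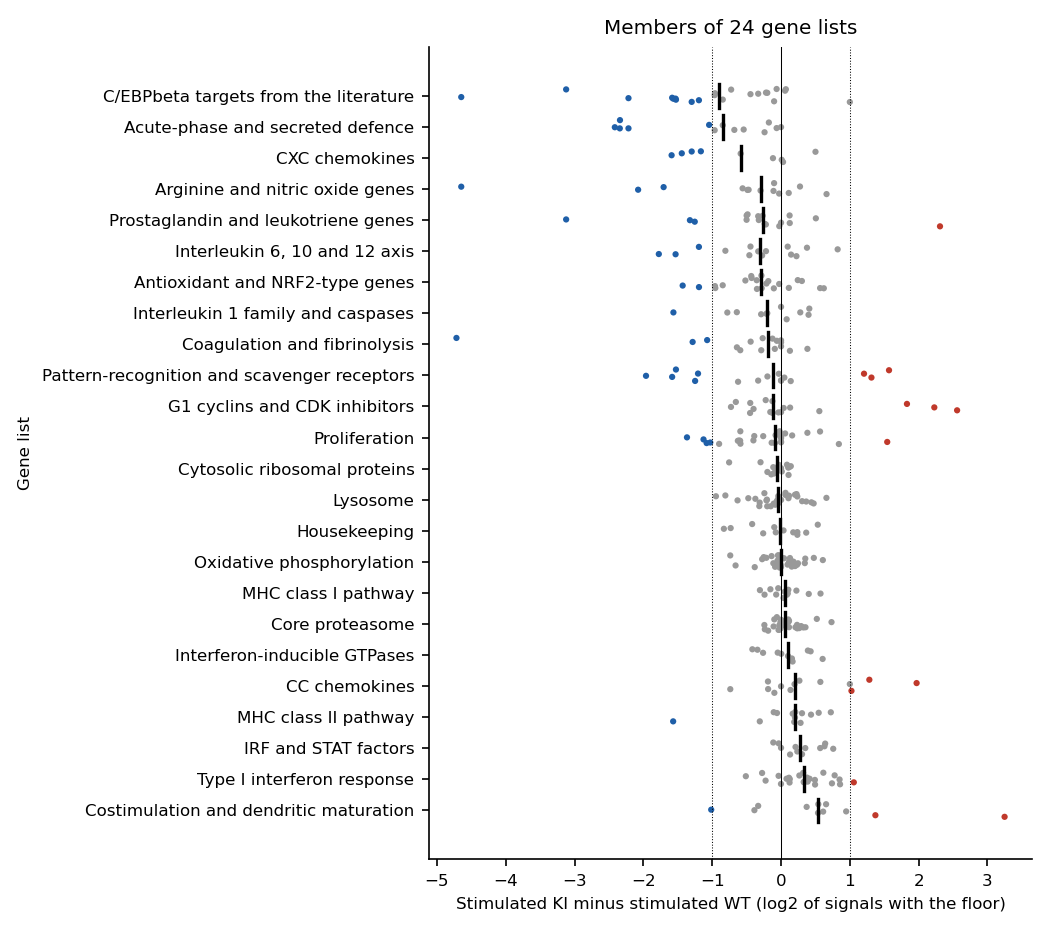
Difference of stimulated KI minus stimulated WT (log2 of signals with the floor, horizontal) for each gene of 24 lists (vertical), 1 array a side; red points are at least 2-fold higher, blue points at least 2-fold lower, and the black bar is the list's median. The bars of C/EBPβ targets and of acute-phase and secreted defence genes lie furthest left, and those of costimulation and of the type I interferon response furthest right.

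Coagulation, lipid and redox genes were lower for a few members each. Against 4.8% lower among all named genes, of 16 coagulation and fibrinolysis genes 3 were lower, which were Serpinb2, coagulation factor X (F10) and tissue factor (F3), and the median was -0.20 (0.00 with median centring). F10 had 1365 and 6517 in WT, 1231 and 1997 in KO and 1444 and 2674 in KI cells, alike before stimulation, and its second probe set was lower by 1.07 on the log2 scale. Of 22 genes of lipid uptake and efflux Lpl was higher and 3 were lower, against 1.92% and 4.8% of all named genes (median -0.069). Median centring gave 2 higher and 1 lower, with a median of 0.25, and quantile normalization gave 1 and 1. Abca1, the cholesterol exporter, had 488 and 825 in WT and 809 and 249 in KI cells, with a second probe set at -1.24, and Apoe, the apolipoprotein it loads, had 25773 and 12881 in the stimulated cells. Apoe was under 2-fold with median centring and with quantile normalization. Of 21 antioxidant genes 2 were lower, Nqo1 and Sod3, 16 were below 0, and the median was -0.29 (0.04 with median centring). Sod2, the mitochondrial superoxide dismutase, had 5593 in WT, 1261 in KO and 2874 in KI cells, just under 2-fold below WT. Nqo1 had a second probe set at 0.46, so its direction is uncertain. Other genes among the 25 lowest bright genes were Inhba, the activin A subunit (735 and 207), Htra1, a secreted protease (1341 and 303), Cyp1b1 (834 and 188), Sgk1, a serum-induced kinase (3189.6 and 1024), and Clu, the chaperone clusterin (569 and 153). Ghrl, which encodes ghrelin, was at least 8.83-fold lower. Sf3b1, a splicing factor, had 1545 and 457, but its second probe set differed by -0.067.

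The same genotypes could be compared before stimulation on arrays that share none with this comparison. More genes differed there, with 594 of 6767 higher (8.78%) and 687 lower (10.2%) in untreated KI cells. Of the 325 genes lower in stimulated KI cells, 118 were lower in untreated KI cells too, which is 36.3% of the stimulated list and 17.2% of the untreated one. Of the 130 higher genes 54 were higher in both states, 41.5% and 9.09% of the lists. Across 6767 genes Pearson's r of the differences was 0.40, and across 2646 bright genes 0.46, where genes share their arrays and are not independent. Of the 25 lowest bright genes 16 were at least 2-fold lower and 0 at least 2-fold higher before stimulation, and of the 25 highest bright genes 13 were higher and 1 lower.

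By their untreated values these genes were of several kinds. Arg1, Saa3, Chil3, Hba-a1, Cdkn1c and Lpl differed from WT in both states, with untreated differences of -4.35, -2.60, -4.24, -3.85, 3.71 and 2.32 on the log2 scale. Ptges, Slc7a2, S100a8, Ccl4 and Cd83 differed after stimulation with smaller untreated differences, which were -0.68, -0.19, 0.13, -0.38 and 0.086. For Il1b and Il6 the untreated signals of both genotypes were under the floor. Another kind was under 2-fold from WT after stimulation and further from it before. Prkcb, a protein kinase C, had 417 in untreated WT and 4650.1 in untreated KI cells, and 423 and 623 after stimulation. Ccl8, a monocyte chemokine, had 1212 and 236 before and 2224 and 2547 after. Plac8 had 2017 and 231 before and 3524 and 2025 after, and Aif1, a macrophage actin-binding protein, 264 and 52.0 before and 643 and 1036 after. How the difference itself changed between the states has 1 array in each of 4 groups and was not tested.

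**Figure D5:**
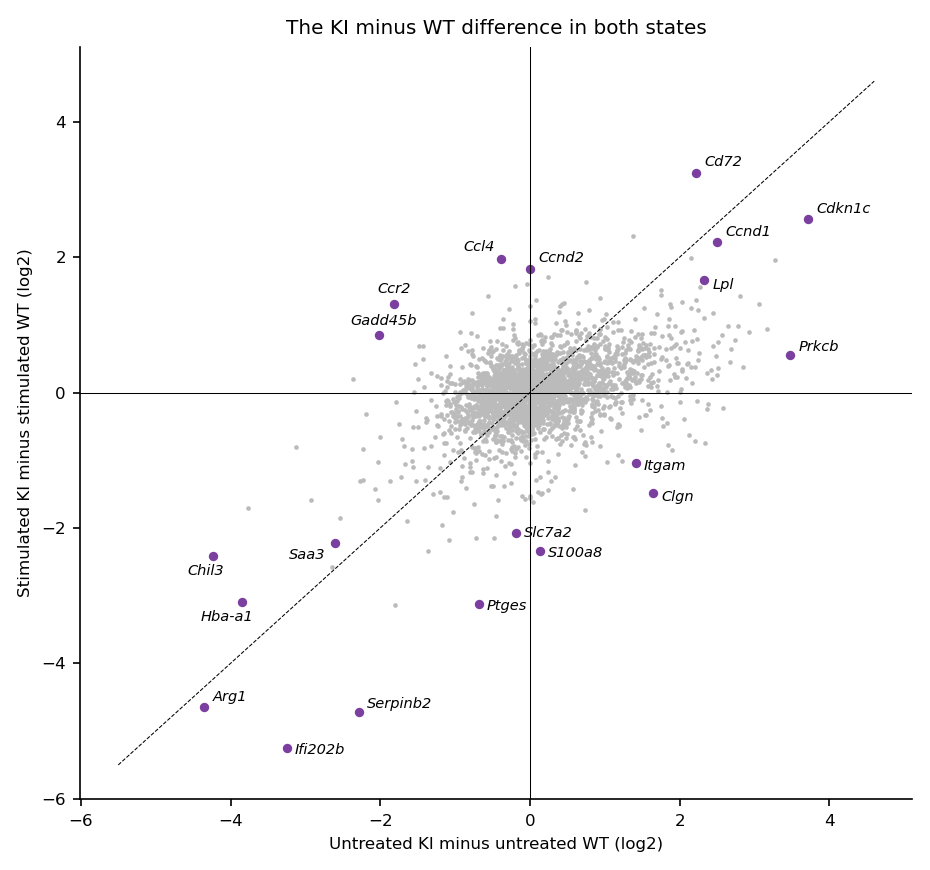
KI minus WT difference (log2 of signals with the floor) in untreated cells (horizontal) and stimulated cells (vertical) for the 2646 bright named genes, with 1 array per group; purple points are named and the dashed line marks equal differences. Arg1, Chil3 and Hba-a1 lie low in both states, Ptges, Slc7a2 and S100a8 low only along the vertical axis, and Ccr2 and Itgam in the quadrants of opposite sign.

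Genes were also sorted by how far the stimulated KO array lay from the untreated KO array, neither of which enters the comparison of KI with WT. Of 158 genes at least 4-fold higher in stimulated than in untreated KO cells, 11 were higher (6.96%) and 9 lower (5.7%) in stimulated KI than in WT cells, with a median of 0.14. Of 117 genes at least 4-fold lower in stimulated KO cells, 7 were higher (5.98%) and 13 lower (11.1%), with a median of -0.19. Of 5608 genes that differed by under 2-fold between the KO arrays, 1.52% were higher and 4.49% lower. The share of higher genes in both outer classes was above the 1.92% of all named genes, and the share of lower genes was near the background of 4.8% in the first and above it in the second, with no test of either.

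Genes with several probe sets gave a check within the same arrays. Among lower genes with another probe set in use, all other probe sets had the same sign in 32 of 40 genes, and among higher genes in 13 of 22. Fewer passed 2-fold as well, since all other probe sets did so in 8 of the 40 lower and 2 of the 22 higher genes. Over 1183 pairs of probe sets of 1 gene the median gap in the difference was 0.41 on the log2 scale, and the spread of 1 probe set was 0.47. The gap was at least 1 in 12.1% of pairs, so a difference of 1 from a single probe set is within the range of such gaps. Ifi202b, Serpinb2, Arg1 and Cd72 each differed by more than 3, but had no other probe set in use. These gaps come from the same 2 arrays and do not measure variation between animals or arrays. Along the chromosome, 3 of the 20 measured genes nearest to Cebpb were lower and 0 higher in stimulated KI cells, against 4.8% and 1.92% of all named genes. These were Ptgis, Snai1 (315 in WT, under the floor in KI) and Rae1 (2585 and 1251, with a second probe set at 0.21), and the last 2 were named after their values were seen.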

How the data were processed

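RNA was extracted with Trizol and hybridised as biotin-labelled cRNA, per the labels. The authors deposited linear intensity values, and MAS5 is named in the submitters' processing notes, with its version and settings not given in the sources used here. No scanner files were used. The trimmed means of the deposited arrays, without 2% of probe sets at each end, were nearly equal. Intensities were rescaled to a common trimmed mean, values under the 40th percentile (98.0) were raised to it, and 66 control probe sets were left out. Of 12422 probe sets 10833 carry 1 gene symbol, 396 several and 1193 none in the platform annotation, and none was named from several. Symbols were matched by gene identifier to RefSeq (GRCm38.p6) for 10817 probe sets.

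Groups came from the titles. With 1 array a side no test was possible, so a size of 1 on the log2 scale served as the rule. Named genes were 17 fixed ones, the 25 largest differences in each direction among genes that reach a signal of 532 on 1 of the 2 arrays, up to 6 members of each of 59 lists, members whose role is explained, and the 8 largest changes of the difference in each direction. The members and lists were chosen with earlier results of these data known. The 10 alternatives covered floor, scaling, probe set choice and size rule, and counts of bright genes by scaling were added after seeing the data. Promoter letters were searched in windows from 250 bases before to 50 after the start. The code was tested on simulated arrays. Python 3.11.15, numpy 2.4.6, pandas 2.3.3 and matplotlib 3.10.9 were used.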

Additional observations from a re-analysis of the deposited data

Results flagged for a closer look

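The difference between KI and WT had opposite directions in the 2 states, by at least 2-fold each way, in 17 of 6767 named genes. Of these, 9 fall under the rule for genes the text names. Among the 325 genes lower after stimulation, 14 were higher before it, against 8.78% of all named genes. Among the 130 higher after stimulation, 3 were lower before it, against 10.2% of all named genes. Such reversals were thus no more frequent than these shares. With 1 array in each group, this change of direction was not tested. The values are stimulated and then untreated KI minus WT on the log2 scale. Ccr2, the receptor that brings monocytes into tissue, gave 1.32 and -1.82, from signals of 267 in WT and 665 in KI cells after stimulation and 2285 and 649 before. Cxcr4, the receptor of Cxcl12, gave 1.05 and -1.37. In both of these receptors the WT signal was far lower on the stimulated than on the untreated array, while the KI signal of Ccr2 was nearly the same on both.

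The other 7 genes were lower in stimulated and higher in untreated KI cells. Itgam, the integrin chain CD11b of myeloid cells, gave -1.05 and 1.41, from 722 and 349 after stimulation and 474 and 1263 before, in WT and KI cells. Il6ra gave -1.78 and 1.05. Dusp6, a phosphatase of the ERK kinases, gave -1.64 and 1.18, and Jun, a subunit of AP-1, -1.21 and 1.01. F3, tissue factor, gave -1.07 and 1.26, Tk1, thymidine kinase, -1.08 and 1.27, and Clgn, a chaperone known from the testis, -1.48 and 1.64.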

How the results depend on the processing

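The counts depended on floor, scaling and size rule. Probe sets higher and lower were 177 and 460, and named genes 130 and 325. A floor at the 20th percentile gave 483 and 1378 probe sets and 313 and 871 genes, and one at the 60th gave 76 and 133 probe sets and 61 and 95 genes. With no floor and a pseudocount of 32 there were 272 and 799 probe sets and 188 and 513 genes. Centring on the median gave 503 and 226 probe sets and 380 and 163 genes, and quantile normalization 282 and 281 probe sets and 202 and 200 genes. A size rule of 1.5 left 45 and 103 probe sets and 35 and 71 genes. Bright genes were 56 higher and 88 lower, 212 and 46 with median centring and 60 and 76 with quantile normalization, chosen after seeing the data. Deposited signals without rescaling, all probe sets, and probe sets above the floor on 1 of the 2 arrays left the counts as they were, and the mean over the probe sets of a gene gave 115 and 284 genes.

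Of the 103 genes under the naming rule that differed by at least 2-fold, none reversed under the 10 alternatives, and 58 kept 2-fold under the 9 that keep that rule. The 25 lowest bright genes all kept it under these 9 except Sf3b1, and the 25 highest except Cd83, Celf2 and Pcp2, each lost with the mean over probe sets. No paired analysis was possible because each group has 1 array, and no array could be left out. No detection calls were used, so values near the floor are the least certain.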

Other observations

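Some genes of groups not described above also differed. Matrix proteases and their inhibitors held 1 lower gene of 14, against 4.8% of all named genes. This was Timp3, with 291 in stimulated WT and 103 in stimulated KI cells. Mmp9, gelatinase B, had 95.3 in untreated WT and 1922 in untreated KI cells, and 259 and 509.6 after stimulation, so the KI arrays were the highest in each state. Timp1, the inducible inhibitor, had 11285 and 6518, and Adam8, a membrane protease of myeloid cells, 3587 and 6744. Among integrins, Itgax, the CD11c chain, had 816 and 1629.8 in WT, 1799 and 1526 in KO and 7301 and 3141 in KI cells, just under 2-fold above WT after stimulation.

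Feedback genes of the MAP kinase pathways had 1 lower gene of 19, Dusp6, a share near the 4.8% of all named genes. Dusp1, which acts on p38, had 2795 in WT and 5109 in KI cells. Gadd45b, a stress-response gene, had 3690.2 in untreated WT and 915 in untreated KI cells, and 2350.4 and 4241 after stimulation. Among growth factors, Vegfa had 614 and 228 in the stimulated cells, 2.69-fold lower in KI, and Csf1r, the receptor that keeps macrophages alive, 4787 and 2901. In complement, Serping1, the C1 inhibitor, was 2.78-fold lower (1151 and 414), and the C1q chains C1qa, C1qb and C1qc differed by 0.42, 0.28 and 0.39 on the log2 scale after stimulation and by -1.53, -1.07 and -1.07 before it. Xist, the transcript of the inactive X chromosome, had 641 and 356 on the stimulated WT and KI arrays, 127 and 473 on the untreated ones and 104 and 241 on the untreated and stimulated KO arrays. The Y-linked Eif2s3y was under the floor on the stimulated WT array and both KI arrays, and had 149.5 in untreated WT and 456 and 267 in untreated and stimulated KO cells, so the arrays differed in sex-linked signal, and its part in other values was not tested.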
